A study of Homo sapiens with 6 samples.

Results

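The chaperones and disulfide isomerases of the endoplasmic reticulum (ER) were represented by 10 genes, HSPA5, HYOU1, HSP90B1, SDF2L1, CALR, CANX, PDIA3, PDIA4, PDIA6 and P4HB, chosen by gene symbol from the 26255 genes listed for each sample. RNA was sequenced from 22RV1 cells, a human castration-resistant prostate cancer (CRPC) line, treated for 24 h with DMSO (3 samples) or with 10 nM bruceantin (BCT), a quassinoid from plants (3 samples). Both groups were kept in full, serum-containing medium. The experiment used 1 cell line, 1 dose and 1 time point, and nothing in the labels says that the samples of a group came from separate cultures, so the p-values measure only the spread between these samples.

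Proteins that enter the secretory pathway are threaded into the ER unfolded. There, chaperones of the HSP70 and HSP90 classes hold and release exposed hydrophobic stretches, the lectins calnexin and calreticulin retain glycoproteins until they are folded, and protein disulfide isomerases form and rearrange disulfide bonds. When unfolded proteins build up, the unfolded protein response (UPR), through the sensors IRE1, PERK and ATF6, raises the transcription of many of these genes, and secretory cells such as those of the prostate lumen rely on this machinery.

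The promoters of several of these genes are textbook examples of the ER stress response element, to which NF-Y and ATF6 bind, and the matches are printed here because 7 of the 9 members with a window held at least 1 of them. Windows from 250 bases before to 50 bases after each RefSeq transcription start (build GRCh38.p14) were searched on both strands for 3 motifs: ERSE, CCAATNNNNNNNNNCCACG; ERSE-II, ATTGGNCCACG; and the 8-base UPRE, TGACGTGG. In the lines that follow, each match is printed on the strand of its gene with 5 bases on either side, and the capitals mark the match, which reads as its reverse complement where the motif lies on the other strand. The ERSE matches are these.
HSPA5, chr9:125241386-125241414, minus strand: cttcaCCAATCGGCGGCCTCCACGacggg
HSP90B1, chr12:103930211-103930239, plus strand: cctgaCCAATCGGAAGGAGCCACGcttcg
HSP90B1, chr12:103930316-103930344, plus strand: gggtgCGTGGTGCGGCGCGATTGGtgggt
CALR, chr19:12938379-12938407, plus strand: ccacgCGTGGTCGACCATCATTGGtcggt
CANX, chr5:179698773-179698801, plus strand: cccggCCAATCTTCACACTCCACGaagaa
PDIA6, chr2:10812848-10812876, minus strand: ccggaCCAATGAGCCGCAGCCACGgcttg
The ERSE-II matches are these.
HYOU1, chr11:119057269-119057289, minus strand: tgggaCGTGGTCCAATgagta
HYOU1, chr11:119057375-119057395, minus strand: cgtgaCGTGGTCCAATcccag
SDF2L1, chr22:21642109-21642129, plus strand: ggaagCGTGGACCAATcaaaa
An ERSE stood in at least 1 window of 5 of the 9 members with a window (HSPA5, HSP90B1, CALR, CANX and PDIA6), against 15 of the 9455 tested genes with a window (0.159%), and in 27 of all 35116 windows (0.0769%). The 15 include the members, and 10 of them are not members. HSP90B1 held 2 copies, at -194 to -176 and -89 to -71 bases from its start. ERSE-II stood in HYOU1, with 2 copies, and in SDF2L1, against 13 of the tested genes with a window (0.137%), and in 19 of all windows (0.0541%). Of these 13 genes 11 are not members. Among the members the UPRE was found in HYOU1 only, where it overlapped the upstream ERSE-II. It stood in 1.26% of the tested genes with a window and in 0.729% of all windows. The windows of PDIA4 and P4HB held no exact match to these motifs. Only exact matches were searched for, so near-matches were not counted in any gene. A match describes the letters in the window and is not evidence of a bound site.

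The values are FPKM, fragment counts scaled by transcript length and by library size, as deposited. Their sums per sample ran from 1169649 to 1572321 in DMSO and from 757534 to 799838 in BCT, and MIR6087 made up 43.5% to 55.3% of the sum with DMSO and 31.7% to 32.5% with BCT. FPKM holds no read counts, so the depth is known only relative to DMSO replicate 1, at 0.878 to 1 for DMSO samples and 1.05 to 1.13 for BCT samples. Fold changes were computed on log2(FPKM + 0.1) with limma for 12729 genes averaging 1 FPKM or more, and a gene was called where its log2 fold change exceeded 0.85 in size with a Benjamini-Hochberg adjusted p below 0.05. The luminal epithelial markers KRT8, KRT18, EPCAM, HOXB13, FOLH1 and KLK3 were detected in every sample, the lowest of them being KLK3 at 0.863 FPKM in a BCT sample. Their levels were not steady. KRT8 (log2 fold change 1.17) and KRT18 (1.72) were called higher with BCT and KLK3 (-2.95) lower. EPCAM (-0.29), HOXB13 (-0.45) and FOLH1 (0.39) were not called. The leukocyte marker PTPRC and the endothelial marker PECAM1 stayed at or below 0.036 FPKM. VIM was at 3.76 to 7.43 FPKM, and COL1A1, a fibroblast collagen, rose from 1.43 ± 0.175 to 5.83 ± 0.69 FPKM (SD, n = 3). The part of other cells in the results was not tested.

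All 10 members were expressed, passed the filter on low values and fell with BCT. Among all genes tested, 17.8% were called lower and 13.9% higher. In each member every BCT sample lay below every DMSO sample, a separation seen in 44.3% of all genes tested. The median log2 fold change of the members was -1.71, beside -0.04 over all genes tested. The 10 fold changes ran from -2.76 in SDF2L1 to -1.01 in P4HB, and 5% of all genes tested had a fold change below -1.63. With samples rescaled to equal FPKM sums, which moved the median of all genes to 0.72, 6 members were called, and all 10 were still below 0 with a median of -0.94. These are bulk samples, so fewer cells with the transcript and less of it per cell cannot be told apart.

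**Figure D1:**
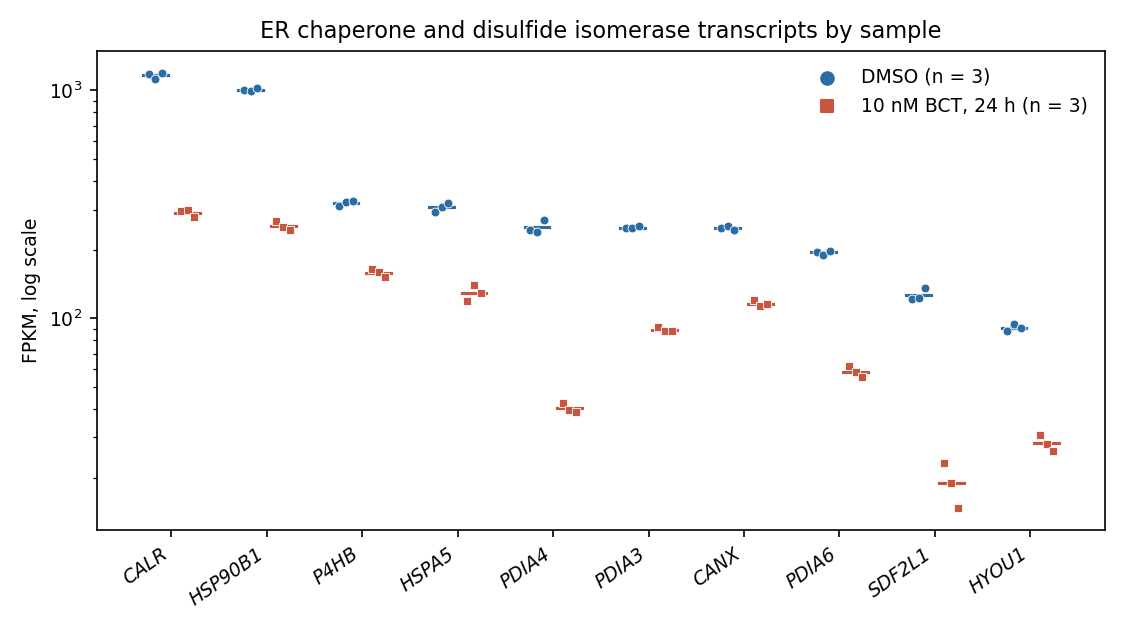
FPKM of each member on a log scale, with DMSO samples as blue circles, BCT samples as red squares and group means as bars (n = 3 per group). The symbols of the groups are separate in every gene, and SDF2L1 has the widest scatter with BCT, from 14.7 to 23.1 FPKM.

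HSPA5, known as BiP, is the HSP70 chaperone of the ER and the protein that keeps the UPR sensors inactive at rest. It lies on the minus strand of chromosome 9 (hg19 chr9:127997127-128003666). Its FPKM was 292, 309 and 320 in the DMSO samples and 119, 140 and 129 in the BCT samples. The groups were far apart, and BCT replicate 1, which was the highest BCT sample for 8 of the members, was the lowest for HSPA5. The mean fell from 307 ± 14.2 to 129 ± 10.5 FPKM (SD, n = 3), a log2 fold change of -1.25 ± 0.069 (SE) with an adjusted p of 1.3e-06 in limma with Benjamini-Hochberg adjustment. BCT samples thus held 42.1% of the DMSO level, and HSPA5 moved from place 291 to place 587 among the 12729 genes ordered by mean FPKM. It was not called with equal sums (-0.48).

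HYOU1, the large HSP70-like protein that serves as a nucleotide exchange factor for BiP (hg19 chr11:118914896-118927957, minus strand), was the member with the lowest level in DMSO. Its 3 DMSO samples had 88.3, 94.5 and 90.3 FPKM and its 3 BCT samples 30.8, 28.2 and 26.1 FPKM. The change was -1.68 ± 0.068 on the log2 scale (limma, Benjamini-Hochberg adjusted p = 5e-07), to 31.2% of the DMSO mean. The 95% interval, -1.84 to -1.53, lay below that of HSPA5, -1.41 to -1.09, and the log2 ratio of HYOU1 to HSPA5 moved from -1.75 ± 0.0641 to -2.19 ± 0.207 with no overlap between the groups.

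HSP90B1, the ER member of the HSP90 family, also called GRP94, folds integrins and Toll-like receptors among its clients (hg19 chr12:104324112-104341708, plus strand). It was at 1007, 991 and 1025 FPKM with DMSO, the second highest level of the set. With BCT it was at 268, 252 and 244 FPKM, so that the BCT mean was 25.3% of the DMSO mean. The mean fell from 1008 ± 16.8 to 255 ± 11.9 FPKM, a log2 change of -1.98 ± 0.051 (limma, Benjamini-Hochberg adjusted p = 1.6e-07). In DMSO the transcript stood at 3.29 times the HSPA5 level per length, and in BCT at 1.98 times.

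SDF2L1, a small soluble cofactor that works with BiP and the J protein DNAJB11, showed the largest fall of the set (hg19 chr22:21996542-21998588, plus strand). Its values were 122, 123 and 136 FPKM under DMSO and 23.1, 18.9 and 14.7 FPKM with BCT. The BCT samples scattered more, in proportion, than those of any other member, yet the highest of them was far under the lowest DMSO sample. The log2 fold change was -2.76 ± 0.14, with a 95% interval from -3.09 to -2.44 and an adjusted p of 1.1e-06 in limma with Benjamini-Hochberg adjustment. SDF2L1 ranked 89 among the 12729 genes ordered by the size of their fall, and its level dropped from place 742 to place 4696.

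CALR and CANX encode calreticulin and calnexin, the soluble and the membrane-bound lectin chaperones that bind the same monoglucosylated glycans. CALR (hg19 chr19:13049414-13055304, plus strand) had the highest level of the set in both groups. It was at 1181, 1123 and 1197 FPKM in the DMSO samples and at 296, 300 and 277 FPKM with BCT. Its log2 fold change was -2.00 ± 0.053 (limma, Benjamini-Hochberg adjusted p = 1.6e-07). CANX (hg19 chr5:179125930-179158639, plus strand) was at 249, 254 and 245 FPKM in the DMSO samples and at 120, 113 and 115 FPKM with BCT. Its log2 fold change of -1.10 ± 0.046 (limma, Benjamini-Hochberg adjusted p = 5.7e-07) was smaller than that of CALR, and their 95% intervals did not meet. The ratio of CALR to CANX was 4.69 in DMSO and 2.51 in BCT, with log2 ratios of 2.25, 2.15 and 2.29 in the DMSO samples and 1.31, 1.41 and 1.27 in the BCT samples. CANX lost its call under quantile normalization (-0.81) and when samples were rescaled to equal sums with (-0.33) or without MIR6087 (-0.72).

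PDIA3, or ERp57, is the disulfide isomerase that the lectin chaperones recruit to glycoproteins. Its FPKM was 248, 248 and 253 with DMSO and 91.6, 87.7 and 87.7 with BCT, among the narrowest spreads of the set. The log2 fold change of -1.49 ± 0.045 (limma, Benjamini-Hochberg adjusted p = 2.1e-07) lay between those of its lectin partners, and it was not called with equal sums (-0.72). Relative to CANX its log2 ratio moved from 0.00 ± 0.0435 to -0.38 ± 0.0132, and relative to CALR from -2.23 ± 0.0385 to -1.71 ± 0.0602. The interval listed for PDIA3 (hg19 chr15:44038590-44094769, plus strand) overlaps those of SERF2, HYPK, SERINC4 and ELL3 among others, which are listed with values of their own. Whether reads of these neighbours entered the PDIA3 value was not tested. Its pseudogene PDIA3P1 was at 3.22 to 3.39 FPKM under DMSO and 1.67 to 2.15 FPKM with BCT.

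PDIA4, or ERp72, a disulfide isomerase with an additional thioredoxin-like domain, fell almost as far as SDF2L1 (hg19 chr7:148700154-148725782, minus strand). It was at 244, 240 and 269 FPKM in the DMSO samples and at 42.6, 39.5 and 38.6 FPKM with BCT. The BCT samples stood close together at 16% of the DMSO mean. The log2 fold change was -2.64 ± 0.063 with an adjusted p of 1.4e-07 in limma with Benjamini-Hochberg adjustment, and the rank of its fall was 106 among all genes tested. The intervals of PDIA4, -2.78 to -2.49, and SDF2L1 overlapped, so the order of these 2 is not resolved.

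PDIA6 and P4HB complete the isomerases. PDIA6 binds to BiP and reduces the sensor IRE1. It was at 196, 190 and 197 FPKM in the DMSO samples and at 61.8, 58 and 55.4 FPKM with BCT, a log2 fold change of -1.74 ± 0.054 (limma, Benjamini-Hochberg adjusted p = 2.4e-07). Its listed interval (hg19 chr2:10861775-10978103, minus strand) overlaps that of ATP6V1C2, which is listed with values of its own. Whether reads of ATP6V1C2 entered the PDIA6 value was not tested. P4HB is the founding protein disulfide isomerase and the shared subunit of collagen prolyl 4-hydroxylase and the microsomal triglyceride transfer protein (hg19 chr17:79801034-79818544, minus strand). It was at 310, 324 and 326 FPKM in the DMSO samples and at 164, 160 and 151 FPKM with BCT; the BCT mean was 49.6% of the DMSO mean. The log2 fold change of -1.01 ± 0.051 (limma, Benjamini-Hochberg adjusted p = 1e-06) was the smallest of the set and close to the threshold of 0.85. P4HB was not called after a correction for GC content and length (-0.75), under quantile normalization (-0.68), or with samples rescaled to equal sums with (-0.24) or without MIR6087 (-0.62).

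**Figure D2:**
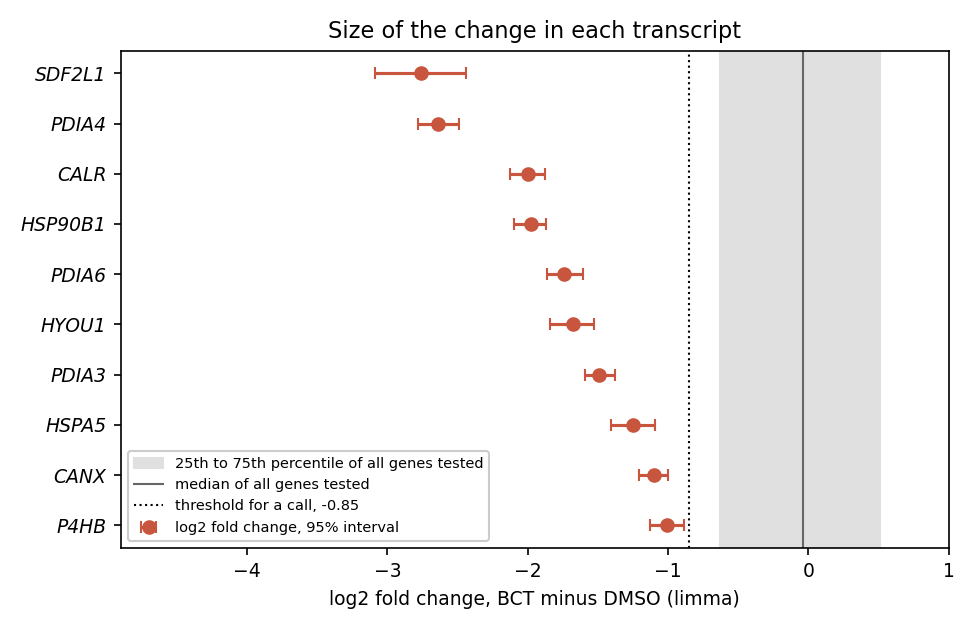
Log2 fold change of each member, BCT minus DMSO, with its 95% interval from limma, set against the median (line) and the 25th to 75th percentile (grey band, -0.63 to 0.51) of all genes tested. All intervals lie left of the dotted threshold at -0.85, and SDF2L1 and PDIA4 stand apart from the other 8 genes.

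Ordered by the size of the fall, SDF2L1 and PDIA4 came first, CALR (-2.00) and HSP90B1 (-1.98) followed with overlapping intervals, and the other 6, from PDIA6 to P4HB, formed a series in which each interval overlapped the next. The interval of PDIA4 ended well below that of CALR, whereas HSP90B1 (up to -1.87) and PDIA6 (from -1.86) were only just apart. In DMSO the order of levels was CALR, HSP90B1, P4HB, HSPA5, PDIA4, PDIA3, CANX, PDIA6, SDF2L1 and HYOU1, where P4HB and HSPA5 overlapped, as did PDIA4, PDIA3 and CANX. In BCT it was CALR, HSP90B1, P4HB, HSPA5, CANX, PDIA3, PDIA6, PDIA4, HYOU1 and SDF2L1, where only HSPA5 and CANX overlapped. PDIA4, level with PDIA3 and CANX in DMSO, lay below both of them and below PDIA6 in BCT, and SDF2L1 and HYOU1 exchanged places at the end. The longest coding transcripts of the members ranged from 825 bases (SDF2L1) to 5562 bases (CANX) and from 41.5% GC (CANX) to 65.1% GC (SDF2L1).

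Added together, the 10 transcripts made 3936, 3896 and 4058 FPKM under DMSO and 1216, 1198 and 1139 FPKM with BCT. The pool in BCT was 29.9% of that in DMSO. As a share of all FPKM without MIR6087, it took 0.56% to 0.589% in DMSO samples and 0.223% to 0.229% in BCT samples. The make-up of the pool was compared as well, in shares that do not depend on how a sample is scaled. P4HB went from 8.07% ± 0.221 to 13.4% ± 0.13 of the pool (SD, n = 3), CANX from 6.29% ± 0.245 to 9.79% ± 0.337 and HSPA5 from 7.74% ± 0.283 to 10.9% ± 1.01. CALR, by contrast, went from 29.4% ± 0.58 to 24.6% ± 0.429, HSP90B1 from 25.4% ± 0.16 to 21.5% ± 0.487, PDIA4 from 6.34% ± 0.263 to 3.4% ± 0.103 and SDF2L1 from 3.2% ± 0.124 to 1.59% ± 0.303. PDIA3 went from 6.3% ± 0.0582 to 7.52% ± 0.192. The shares of PDIA6 (4.91% and 4.93%) and HYOU1 (2.3% and 2.39%) overlapped between the groups. With 3 samples in each group, the smallest p of an exact two-sided permutation test is 0.1, which the other 8 shares reached (adjusted p = 0.125 over 10 shares).

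**Figure D3:**
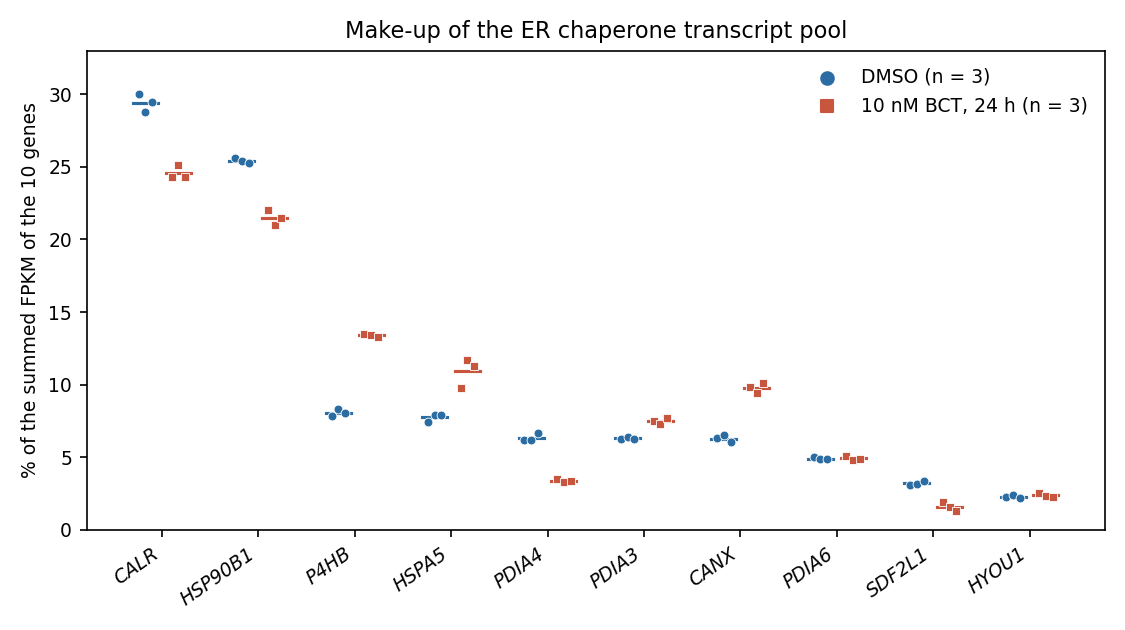
Share of each member in the summed FPKM of the 10 genes, in percent, for DMSO (blue circles) and BCT samples (red squares), with group means as bars (n = 3 per group). CALR, HSP90B1, PDIA4 and SDF2L1 lie lower with BCT, P4HB, HSPA5, CANX and PDIA3 lie higher, and PDIA6 and HYOU1 overlap.

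Ratios between members of related roles were compared for 9 pairs, chosen with their values known. None overlapped between the groups, and each reached the smallest p that an exact permutation test allows here, 0.1. Since the genes of each pair were known to differ in fold change, this outcome is a description only. Single genes also separated the groups often, 5639 lower and 5215 higher with BCT among the 12729 tested. The largest shifts involved PDIA4 and SDF2L1. PDIA4 stood at 0.785 times the P4HB level in DMSO and 0.254 times in BCT, with log2 ratios of -0.34, -0.43 and -0.27 against -1.95, -2.02 and -1.97. SDF2L1 stood at 0.414 times HSPA5 in DMSO and 0.144 times in BCT. PDIA4 exceeded PDIA6 1.29 times with DMSO and reached 0.689 times its level with BCT.

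BCT replicate 1 was the highest BCT sample in 8 of the 10 members, and BCT replicate 3 was the lowest in 7. The median log2 difference of the members from the DMSO mean was -1.61, -1.71 and -1.81 in BCT replicates 1, 2 and 3. Over all genes tested, the median size of the difference from the DMSO mean was 0.50, 0.62 and 0.61 in the same samples, so that BCT replicate 1 was also nearest to DMSO there. Without BCT replicate 1 all 10 members were called, with a median of -1.76.

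Other genes of ER folding were taken from a list of 69, of which 62 passed the filter on low values. Of these 20 (32.3%) fell and 0 rose (17.8% and 13.9% of all genes tested), with a median log2 fold change of -0.55, whereas with samples rescaled to equal sums 3 fell and 14 rose. In limma 43 of the 62 had an unadjusted p below 0.05 with a negative fold change and 13 with a positive one. All of the 13 were under the threshold of 0.85. By a Benjamini-Hochberg adjusted p below 0.05 alone the counts were 42 and 13. Of all 12729 genes tested, 10450 passed that adjusted p in either direction. The strongest falls outside the members were in CRELD2 (-2.02), FKBP9 (-1.71), CLGN (-1.65), VKORC1 (-1.59), MANF (-1.45) and RCN2 (-1.33). With equal sums VKORC1 (-0.83), MANF (-0.68) and RCN2 (-0.57) were not called. CRELD2 and MANF are secreted ER stress proteins, CLGN is a calnexin relative best known from testis, FKBP9 a prolyl isomerase, VKORC1 the vitamin K epoxide reductase and RCN2 a calcium-binding protein of the CREC family.

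By role, all 3 KDEL receptors, which return ER proteins that carry the retention signal from the Golgi, fell: KDELR1 went from 171 ± 3.54 to 88.7 ± 4.48 FPKM (-0.95), KDELR2 from 151 ± 1.46 to 83 ± 1.29 (-0.87) and KDELR3 from 6.92 ± 0.126 to 3.15 ± 0.314 (-1.12). None of these 3 was called with equal sums, where they stood at -0.18, -0.10 and -0.37, or without MIR6087 in the sums (-0.56, -0.48 and -0.74). Under quantile normalization KDELR1 (-0.70) and KDELR2 (-0.63) were not called. All 4 tested CREC proteins fell too. In the calnexin cycle 2 of 6 fell, among the prolyl isomerases 3 of 7, and among the other isomerases, oxidases and redox enzymes 5 of 21 (23.8%). Of all genes tested 17.8% were called lower. With equal sums the 3 genes of the list still called lower were CRELD2 (-1.25), FKBP9 (-0.96) and CLGN (-0.89). No CREC protein and none of the 21 isomerases, oxidases and redox enzymes was called lower there. The ER oxidases that recharge P4HB were not called, with ERO1A at -0.62 and ERO1B at -0.18, and both were above 0 with equal sums (0.14 and 0.54).

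Of the 8 genes listed under J proteins and exchange factors of BiP, 0 were called in either direction in limma. The 8 include the HSP70-like HSPA13, whereas the exchange factor HYOU1 is counted among the members. Of the 8, 4 had an unadjusted p below 0.05 in limma with a negative and 3 with a positive fold change. By the Benjamini-Hochberg adjusted p alone these counts were 3 and 3, where 10450 of all 12729 genes tested passed in either direction. DNAJB11, which acts with SDF2L1, went from 58.5 ± 0.918 to 32.9 ± 1.14 FPKM, and its log2 difference of -0.83 (interval -0.94 to -0.72) just missed the threshold of 0.85, which it passed without BCT replicate 2 (-0.86). DNAJC3 stood at -0.58 and DNAJC10 at -0.57, which became 0.19 and 0.20 with equal sums. DNAJC10, however, was called lower after the correction for GC content and length (-1.03). That correction took the longest coding transcript of DNAJC10, 20144 bases, and whether this form was expressed was not tested. DNAJB9 was at 12.1 ± 0.387 with DMSO and 17.5 ± 2.23 FPKM with BCT (0.53), and DNAJC1 at 17.5 ± 0.441 and 28.1 ± 1.61 FPKM (0.68). These last 2 were called higher with equal sums (1.29 and 1.44) and without MIR6087 in the sums (0.91 and 1.06). SDF2, the constitutive relative of SDF2L1, differed by 0.12 (interval 0.01 to 0.24), against -2.76 in SDF2L1. The α subunits that pair with P4HB in the prolyl hydroxylase differed by 0.34 (P4HA1) and 0.43 (P4HA2), neither called.

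**Figure D4:**
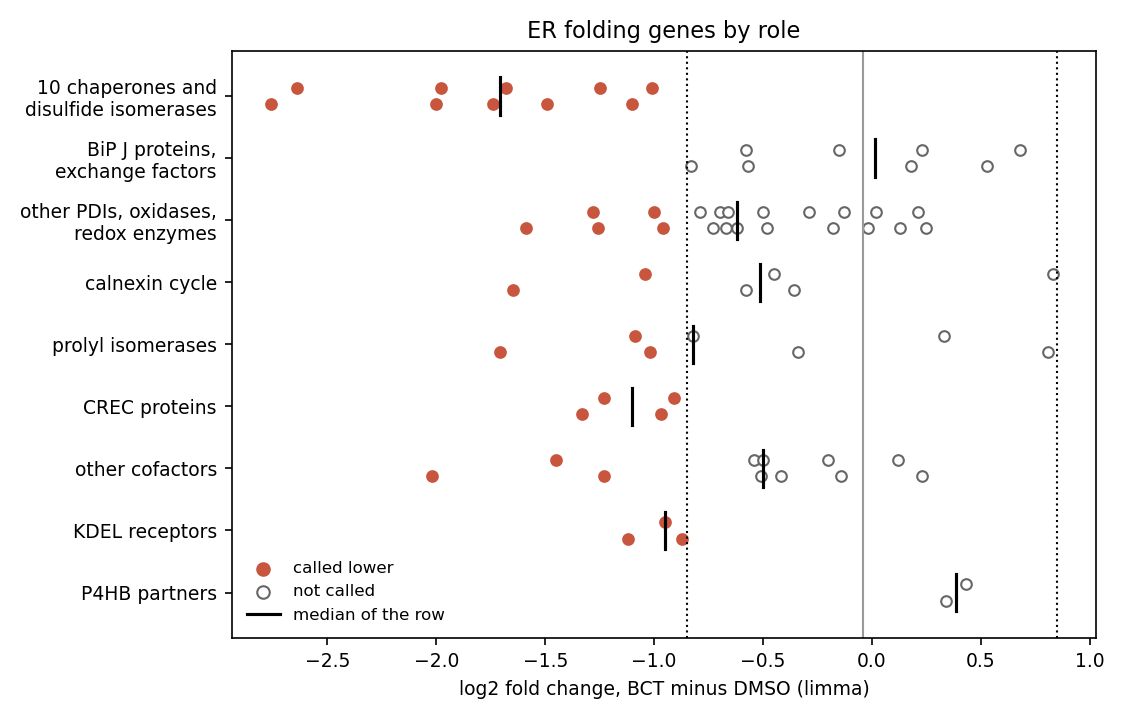
Log2 fold change of the 10 members and of 62 other ER folding genes by role, with filled points for genes called lower, open points for genes not called, a bar at the median of each line, dotted lines at the thresholds and a grey line at the median of all genes tested. All 10 members and all KDEL receptors and CREC proteins are filled, and the points on the line of J proteins and exchange factors, which leaves out HYOU1, are all open.

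The regulators of the UPR were measured beside the members. Of the 14 tested, 5 rose and 1 fell, beside 13.9% higher and 17.8% lower among all genes tested. ATF4 was at 532, 537 and 514 FPKM in the DMSO samples and at 1559, 1845 and 1759 FPKM with BCT, and DDIT3 went from 76 ± 1.44 to 289 ± 28.7 FPKM. The sensors ERN1 (IRE1) and ATF6 rose from 1.83 ± 0.242 to 4.44 ± 0.137 FPKM and from 8.05 ± 0.188 to 16.4 ± 0.986 FPKM, CREB3 rose by 1.07 on the log2 scale, and ATF6B fell from 21.2 ± 0.0488 to 8.29 ± 0.973 FPKM. XBP1 (0.36) and EIF2AK3, which encodes PERK (0.76), were not called. With equal sums both were called higher (1.13 and 1.52), and EIF2AK3 also without MIR6087 in the sums (1.14) and without BCT replicate 1 (0.85). ATF6B was not called with equal sums (-0.59), and ATF6 was not called after the correction for GC content and length (0.82) or in the limma test against the fold change threshold (adjusted p = 0.064). Transcript levels say nothing of the splicing of XBP1 or the cleavage of ATF6, which were not measured.

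The promoter motifs were also read against the fold changes of genes outside the members. Among the 10 with an ERSE that are not members, 1 fell (CRELD2, -2.02) and 1 rose (ZNF17, 1.15), with a median of -0.05. Among the 11 with an ERSE-II, 4 fell (NUCB1 at -1.77, SHCBP1 at -1.25, RAD9A at -1.24 and GYS1 at -0.85) and 2 rose (ZNF143 at 1.01 and CNKSR1 at 0.89), with a median of -0.49. A UPRE stood in 118 genes outside the members, of which 17 fell (14.4%) and 15 rose, with a median of -0.09. Of all genes tested 17.8% were called lower and 13.9% higher. Of the ER stress response, XBP1, ERO1B, FICD and SERP1 held an ERSE and were at 0.36, -0.18, -0.04 and 0.00. CRELD2, also an ER stress gene with an ERSE, was at -2.02, and HERPUD1, with an ERSE-II, was at -0.49 and not called. These genes were named after their values were seen. Members without an exact match in their windows, PDIA4 (-2.64) and P4HB (-1.01), lay towards opposite ends of the set.

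Related chaperones of other compartments were compared by their own values. Of 13 counterparts tested, 5 fell and 0 rose in limma, and their median was -0.76. By a Benjamini-Hochberg adjusted p below 0.05 alone, 10 were lower and 1 (HSPA4) higher. Of all 12729 genes tested, 10450 passed that adjusted p in either direction. The 5 are 38.5% of the list, beside 17.8% lower and 13.9% higher among all genes tested. HSP90B1 (-1.98) stood beside the mitochondrial TRAP1, which fell by 1.11 on the log2 scale (not called with equal sums, -0.35, or without MIR6087 in the sums, -0.73), and beside the cytosolic HSP90AA1 (-0.71) and HSP90AB1 (-0.76), which were not called and were at 0.06 and 0.01 with equal sums. HSPA5 (-1.25) stood beside the cytosolic HSPA8, at 1052, 1043 and 971 FPKM under DMSO and 500, 272 and 266 FPKM with BCT (-1.63), where BCT replicate 1 was well above the others. HSPA9, its mitochondrial counterpart, differed by -0.79 and was called only after the correction for GC content and length (-0.88). HYOU1 (-1.68) stood beside HSPH1 (-0.55, or 0.22 with equal sums), HSPA4 (0.74) and HSPA4L (0.16, or -0.16 after a correction for GC content and length), none of them called. HSPA4 was called higher with equal sums (1.51), without MIR6087 in the sums (1.13) and under quantile normalization (0.90), and HSPA4L with equal sums (0.93). The inducible HSPA1A (-0.95) and HSPA1B (-0.96) fell, and since they are near-identical copies their values are uncertain. Neither was called with equal sums (-0.19 and -0.20), without MIR6087 in the sums (-0.57 and -0.58), after the correction for GC content and length (-0.70 and -0.74) or in the test against the fold change threshold, and HSPA1A also not with a pseudocount of 1 (-0.81) or without BCT replicate 3 (-0.79). Of the others, HSPA14 was at 0.06, and the thioredoxin TXN, a cytosolic relative of the isomerase domains, fell by 1.21 on the log2 scale.

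Across the 6 samples, the genes whose log2 values were most like the centred mean of the members were CRELD2 (Pearson r = 0.99992), TK1 (0.99976), FABP5 (0.99967), WEE1 (0.99965) and MBOAT7 (0.99964). CRELD2 was at 193 ± 7.3 FPKM under DMSO and 47.5 ± 2.87 with BCT, and TK1 at 134 ± 4.04 and 30.1 ± 2.46 FPKM. Likeness over 2 groups of 3 is mostly the difference between the groups, and 11.3% of the 12719 genes compared had an r above 0.99.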

How the data were processed

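RNA from 6 samples of 22RV1 cells (3 DMSO, 3 BCT) was sequenced, and the groups were taken from the sample labels. The authors used Trimmomatic 0.38 for trimming, HISAT2 for alignment to hg19/GRCh37 and StringTie for transcript assembly, then deposited FPKM values per gene; HTSeq and CASAVA also appear in the submitters' processing notes, and the gene annotation is not given in the sources used here. The deposited FPKM values, which scale with the rest of the library, were used without rescaling. Fold changes on log2(FPKM + 0.1), which understate the change of low genes, were tested with limma 3.58.1 (R 4.3.3; eBayes, mean-variance trend, no covariates) over 12729 genes averaging 1 FPKM or more, with Benjamini-Hochberg adjustment. Shares and ratios were compared by exact permutation tests in scipy 1.17.1. The limma step alone was tested on simulated data.

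The 10 members and all gene lists were chosen with earlier results of these data known. Named genes were the members; up to 6 other ER folding genes called with the largest fall or rise, and the tested DNAJ proteins, ERO1 oxidases and KDEL receptors; the UPR sensors, XBP1, ATF4 and DDIT3; the HSP90 and HSP70 paralogs; and the 5 genes most correlated with the members. Any other gene named was picked with its values in view. Positions are as deposited on hg19 with 1 added to the start, which equals a GENCODE transcript start for 7961 of 22422 matched genes, against 857 without it. GC content and length, from the longest coding GENCODE transcript, were available for 91.8% of the genes tested. Promoters are from RefSeq (GRCh38.p14) and matched 9 members. Protein features were not analysed here, and 1 cell type marker is not reported here. Alternatives covered scaling, pseudocount, filter, variance model, threshold, GC content with length, the replicate block and each sample left out.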

Additional observations from a re-analysis of the deposited data

How the results depend on the processing

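All 10 members kept their direction under every alternative, and the difference between their median and that of all genes ran from -1.75 to -1.54. Scaling moved the values most. Rescaling to equal sums moved the all-gene median fold change from -0.04 to 0.72 (log2). It left 6 members called (median -0.94), 3 other ER folding genes lower and 14 higher, and 668 genes lower and 5614 higher in all. DNAJC3 (0.19), DNAJC10 (0.20), ERO1A (0.14), ERO1B (0.54), HSP90AA1 (0.06), HSP90AB1 (0.01) and HSPH1 (0.22) turned direction. Without MIR6087 in the sums, the median of all genes was 0.34, 8 members were called (median -1.32), 8 other ER folding genes were lower and 4 higher, ERO1B turned to 0.19, and 1208 genes were lower and 3370 higher. Lower calls made up 56.2% of all calls as reported, 10.6% with equal sums and 26.4% without MIR6087. The members' median was -1.51 under quantile normalization (8 called), -1.67 with median-of-ratios scaling and -1.61 after the GC content and length correction (9 called), which also turned HSPA4L to -0.16. Each of these 3 settings, the removal of the filter and a pseudocount of 0.01 gave 1 other ER folding gene higher. All genes higher numbered 1150 at a mean of at least 5 FPKM and 2657 without a filter, where fewer or more genes were tested. A test against the fold change threshold called 10 members, 13 other ER folding genes lower, and 1392 genes lower and 1033 higher.

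Leaving out 1 sample at a time left all 10 members called, with medians from -1.76 to -1.66, and gave 0 to 2 other ER folding genes higher (2 without BCT replicate 1, 1 without DMSO replicate 2). Deviations of same-numbered samples correlated at 0.116, 0.033 and 0.034, and those of differently numbered samples at -0.115 to 0.074. Whether same-numbered samples shared a culture or a batch was not tested. With the replicate block 10 members were called with a median of -1.71, and with the replicate block and the GC content and length correction the median was -1.61, HSPA4L was -0.16 and 1 other ER folding gene was higher. Over the members' single results, 200 of 210 kept their call and 10 lost it. Depth is known only as a ratio, so no counting error could be set on low values.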

Other observations

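Some genes of ER folding lay below the filter on low values and were not tested. RCN3, a CREC protein, was at 1.73, 1.04 and 1.7 FPKM in the DMSO samples and at 0.282, 0.252 and 0.224 FPKM with BCT, and FKBP7, a prolyl isomerase, at 1.24, 1.17 and 1.11 and at 0.313, 0.253 and 0.324 FPKM. MTTP, which pairs with P4HB in the microsomal triglyceride transfer protein, was at 0.208, 0.094 and 0.123 FPKM in the DMSO samples and at 0.63, 0.789 and 0.796 FPKM with BCT, so its samples lay on the other side from those of P4HB. The testis isomerase PDILT was listed at 0 in all 6 samples, and CALR3, a testis relative of calreticulin, was between 0.022 and 0.239 FPKM.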
